A study of Mus musculus with 12 samples.

Results

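The genes described here carry the Wnt signal in the dentate gyrus of the adult mouse hippocampus, from the secreted ligand to the transcription factor in the nucleus. They were chosen from the count table by gene name, by a rule set with earlier results of these data known. It took the protein-coding Wnt, frizzled, Lrp5 and Lrp6, Ror, Sfrp and Frzb, Dkk, R-spondin, dishevelled, Axin, Apc, Gsk3b, Ctnnb1, Tcf7-type and Lef1 genes. The rule found 57 genes of 50600 gene identifiers. They comprise 19 Wnt ligands, 14 receptors, 12 secreted modulators, 8 cytoplasmic mediators and 4 transcription factors.

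Wnt ligands are secreted glycoproteins that bind frizzled receptors, with Lrp5 or Lrp6 as co-receptors in the beta-catenin branch. In the absence of a ligand, a complex of Apc, Axin and the kinase Gsk3b marks beta-catenin, the product of Ctnnb1, for destruction; a bound receptor recruits dishevelled proteins, beta-catenin accumulates, and it enters the nucleus to act with Tcf and Lef factors. Sfrp and Dkk proteins are known mostly as extracellular inhibitors and R-spondins as enhancers, while Ror1 and Ror2 act in beta-catenin-independent branches such as planar cell polarity. In the dentate gyrus, Wnt ligands made by local astrocytes are known as regulators of adult neurogenesis.

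Messenger RNA was sequenced from 12 libraries, each made from 50 live cells sorted from the dentate gyri of adult Nestin-GFP mice, in which regulatory sequence of the Nestin gene drives GFP in every animal of all 3 groups. All cells were negative for CD31, CD45, O1 and O4, the surface marks of endothelial cells, leukocytes and the oligodendrocyte lineage. Stem cells carried both GFP and GLAST, the astroglial glutamate transporter encoded by Slc1a3; progenitors carried GFP alone and astrocytes GLAST alone, with 4 libraries of each type. The study describes the 4 libraries of a type as biological replicates. The astrocyte and progenitor libraries, whose table columns carry no numbers, are named a to d here, and the stem cell libraries 1 to 4.

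The libraries held 5031166 to 12535028 assigned reads, and the Wnt genes took 0.121 to 0.223% of them. Levels are given as CPM, counts per 1000000 reads of the effective library size after TMM scaling. Before the results, the labels were compared with marker lists of 10 genes each. Astrocyte markers summed to 15988 to 21013 CPM in astrocytes, 7003 to 9718 CPM in progenitors and 23763 to 29448 CPM in stem cells. In progenitors, neuroblast markers summed to 1821 to 3314 CPM against 77 to 530 CPM in the other libraries, and oligodendrocyte precursor markers to 2477 to 4202 CPM against 43.8 to 321 CPM. Mural cell markers reached 3012, 2305 and 967 CPM in progenitors a, c and d, and 59.3 CPM in progenitor b. Fibroblast markers, which share Pdgfra with the oligodendrocyte precursor list, summed to 421, 404, 934 and 1614 CPM in progenitors a to d. Endothelial markers summed to 8.11, 256, 1.25 and 14.3 CPM in stem cells 1 to 4. Astrocyte a had 5483 CPM of granule neuron and 3205 CPM of oligodendrocyte markers, against 655 to 1951 and 337 to 1459 CPM in the other astrocyte libraries. Granule neuron markers summed to 303 to 428 CPM in progenitors and 262 to 526 CPM in stem cells, below every astrocyte library. Oligodendrocyte markers summed to 249 to 419 CPM in progenitors and 477 to 848 CPM in stem cells. Neural stem cell markers, a list that includes Nes, summed to 1636 to 2173 CPM in stem cells. They summed to 627 to 1447 CPM in astrocytes and 802 to 1269 CPM in progenitors, so that every stem cell library was highest. Nes itself had no count in any astrocyte library and 0, 4, 0 and 0 counts in stem cells, although the Nestin transgene marked the stem cells. In such bulk libraries, fewer cells of a type and less RNA per cell cannot be told apart.

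Promoter sequence was taken from RefSeq on GRCm38.p6, where 39 of the 57 genes matched with 48 start sites; Fzd2, Fzd3, Dkk3 and Apc were not among them. The 250 bases before each start were searched on both strands for the letters CTTTG followed by AA, AT, TA or TT, the core of the element that Tcf and Lef factors bind. These letters occurred in 6 of the 48 windows (12.5%), those of Dkk1, Fzd7, Lef1, Tcf7l2, Wnt11 and Wnt5b, and in 14.8% of all 32851 windows of the table. The median GC content was 67.4% in the windows of the Wnt genes and 52.4% over all windows, which include those of noncoding genes. Shown are the windows of Wnt7a (chr6:91411354-91411603, minus strand), the ligand with the highest mean per kilobase of exon, and of Fzd9 (chr5:135251048-135251297, minus strand), the frizzled gene that led per kilobase in progenitors. Also shown are those of Ctnnb1 (chr9:120933150-120933399, plus strand) and of Tcf7l2, the leading transcription factor. Tcf7l2 is given at its upstream start (chr19:55741560-55741809, plus strand) and at an internal one (chr19:55895071-55895320, plus strand). Nkd1 (chr8:88527383-88527632, plus strand) and Dact1 (chr12:71309634-71309883, plus strand), 2 cytoplasmic Wnt regulators whose counts separated progenitors from astrocytes, are printed for comparison. Each runs 5′ to 3′ and ends at the base before the start site, and capitals mark a match to the motif.
Wnt7a: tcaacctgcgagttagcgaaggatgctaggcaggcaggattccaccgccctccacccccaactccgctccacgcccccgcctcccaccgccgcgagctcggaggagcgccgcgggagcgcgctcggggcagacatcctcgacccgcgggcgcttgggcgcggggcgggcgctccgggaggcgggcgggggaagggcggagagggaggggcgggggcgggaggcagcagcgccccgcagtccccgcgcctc
Fzd9: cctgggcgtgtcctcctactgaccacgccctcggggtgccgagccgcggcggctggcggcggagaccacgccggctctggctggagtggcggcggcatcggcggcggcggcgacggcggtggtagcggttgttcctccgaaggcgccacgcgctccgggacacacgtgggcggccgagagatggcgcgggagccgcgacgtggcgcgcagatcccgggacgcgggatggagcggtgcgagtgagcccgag
Ctnnb1: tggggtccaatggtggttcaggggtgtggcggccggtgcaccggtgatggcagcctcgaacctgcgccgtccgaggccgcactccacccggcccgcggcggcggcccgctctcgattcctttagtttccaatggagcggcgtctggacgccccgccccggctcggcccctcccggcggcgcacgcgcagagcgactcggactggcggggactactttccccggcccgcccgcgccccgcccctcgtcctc
Tcf7l2 upstream: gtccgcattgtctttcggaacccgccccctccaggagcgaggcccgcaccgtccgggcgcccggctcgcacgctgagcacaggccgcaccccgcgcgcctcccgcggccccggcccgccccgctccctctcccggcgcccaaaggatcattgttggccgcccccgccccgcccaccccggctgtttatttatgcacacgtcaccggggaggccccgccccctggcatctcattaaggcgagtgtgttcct
Tcf7l2 internal: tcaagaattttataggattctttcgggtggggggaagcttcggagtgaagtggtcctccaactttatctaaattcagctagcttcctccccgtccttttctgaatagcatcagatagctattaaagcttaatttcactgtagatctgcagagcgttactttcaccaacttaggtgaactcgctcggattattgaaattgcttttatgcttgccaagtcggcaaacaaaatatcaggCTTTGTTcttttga
Nkd1: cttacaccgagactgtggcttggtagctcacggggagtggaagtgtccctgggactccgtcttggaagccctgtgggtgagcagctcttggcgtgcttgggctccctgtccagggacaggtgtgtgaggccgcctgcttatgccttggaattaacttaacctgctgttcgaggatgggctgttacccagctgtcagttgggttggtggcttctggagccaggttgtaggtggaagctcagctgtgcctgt
Dact1: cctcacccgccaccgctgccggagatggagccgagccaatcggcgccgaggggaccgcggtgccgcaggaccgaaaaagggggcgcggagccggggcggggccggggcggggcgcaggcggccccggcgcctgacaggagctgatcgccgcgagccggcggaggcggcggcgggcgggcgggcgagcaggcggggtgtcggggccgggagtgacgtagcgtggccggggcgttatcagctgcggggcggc
The capitals appear in the internal Tcf7l2 window alone, where CTTTGTT lies 14 bases before the start.

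More Wnt genes were detected in progenitors than in the other types, as was so for protein-coding genes at large. At least 10 counts in all 4 libraries were found for 13 of the 57 genes in astrocytes, 24 in progenitors and 18 in stem cells, and 45 genes had a count in some library. Receptors met this minimum 3 times of 14 in astrocytes (Fzd2, Fzd9 and Lrp6) and 7 times in each of the other types. Secreted modulators met it once in astrocytes and in stem cells (Dkk3), and 4 times in progenitors, where Frzb, Sfrp1 and Sfrp4 joined Dkk3. By this rule the number of ligands did not differ: Wnt7a and Wnt7b were the 2 of 19 that met the minimum, in every cell type. In single libraries it did, with 4 to 6 ligands at 10 counts in progenitors, 2 to 3 in astrocytes and 3 in stem cells. These libraries were not thinned, and held 9041498 to 12535028 assigned reads in progenitors against 5357232 to 6253680 in astrocytes. Some progenitor library held 10 counts for 8 ligands, against 5 in each other type. Per library, 18 to 21 Wnt genes reached 10 counts in astrocytes, 29 to 34 in progenitors and 24 to 26 in stem cells. The same order held for all protein-coding genes, of which 35.8 to 43.6%, 58.1 to 59.7% and 49.2 to 51.2% reached 10 counts. The order of the cell types is therefore no result about the Wnt genes. With every library thinned to the smallest total, 13, 21 and 17 Wnt genes kept at least 10 counts in all 4 libraries of astrocytes, progenitors and stem cells.

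**Figure D1:**
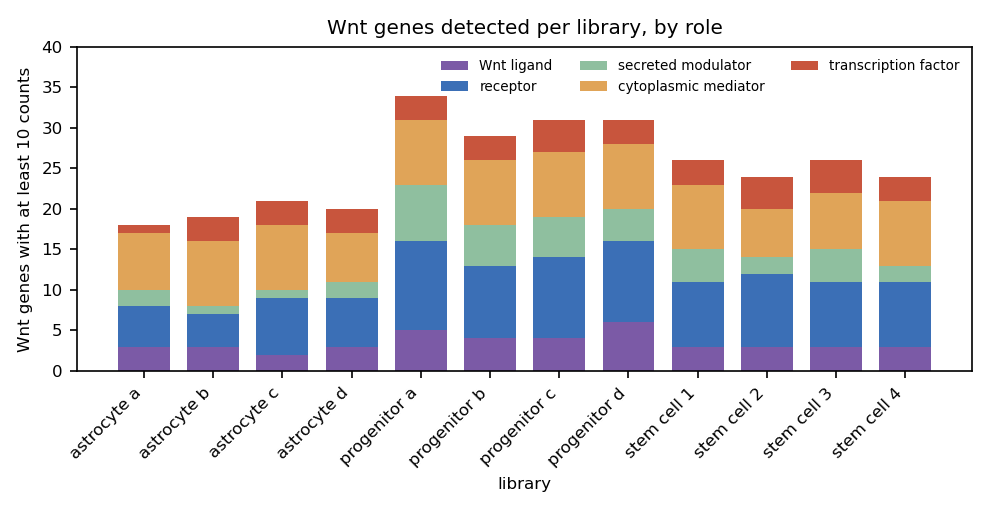
Number of Wnt genes with at least 10 counts (y axis) in each of the 12 libraries (x axis), stacked by role. Astrocyte libraries reach 18 to 21, stem cell libraries 24 to 26 and progenitor libraries 29 to 34. Receptors, secreted modulators and ligands add to the taller progenitor bars, with 4 to 6 ligands there and 2 to 3 in the other bars.

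Detection was patchy from library to library. Of the 25 Wnt genes with at least 50 counts in some astrocyte library, 8 (32%) had no count in another astrocyte library, against 26.1% of protein-coding genes. The corresponding numbers were 7 of 33 (21.2%) in progenitors, against 9.90%, and 6 of 27 (22.2%) in stem cells, against 13.9%. Wnt4, a ligand of both branches, had 569 counts in astrocyte a and 0, 1 and 0 in the other astrocytes. Wnt3, a ligand of the beta-catenin branch, had 303 counts in astrocyte d and none in astrocytes a to c, with 106 and 64 counts in progenitors a and c. Wnt8b had 92 and 8 counts in astrocytes b and d, 131 and 9 counts in stem cells 3 and 4, and no count elsewhere. Each of these ligands rested on a few libraries of a type, so that a group mean does not describe them. Wnt1, Wnt2, Wnt3a, Wnt9b, Wnt10a, Wnt10b, Wnt11, Wnt16, Dkk1, Dkk4, Sfrp2 and Sfrp5 had no count in any library, with 3 counts per library as the limit that a count of 0 allows. This limit covers the counting error of reads alone, and neither that of molecules nor the gaps between libraries given above. The same holds for every fold given below as a least value. Dkk2, Ror2 and Wnt8a stayed under 10 counts throughout, with at most 1, 5 and 7 counts.

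**Figure D2:**
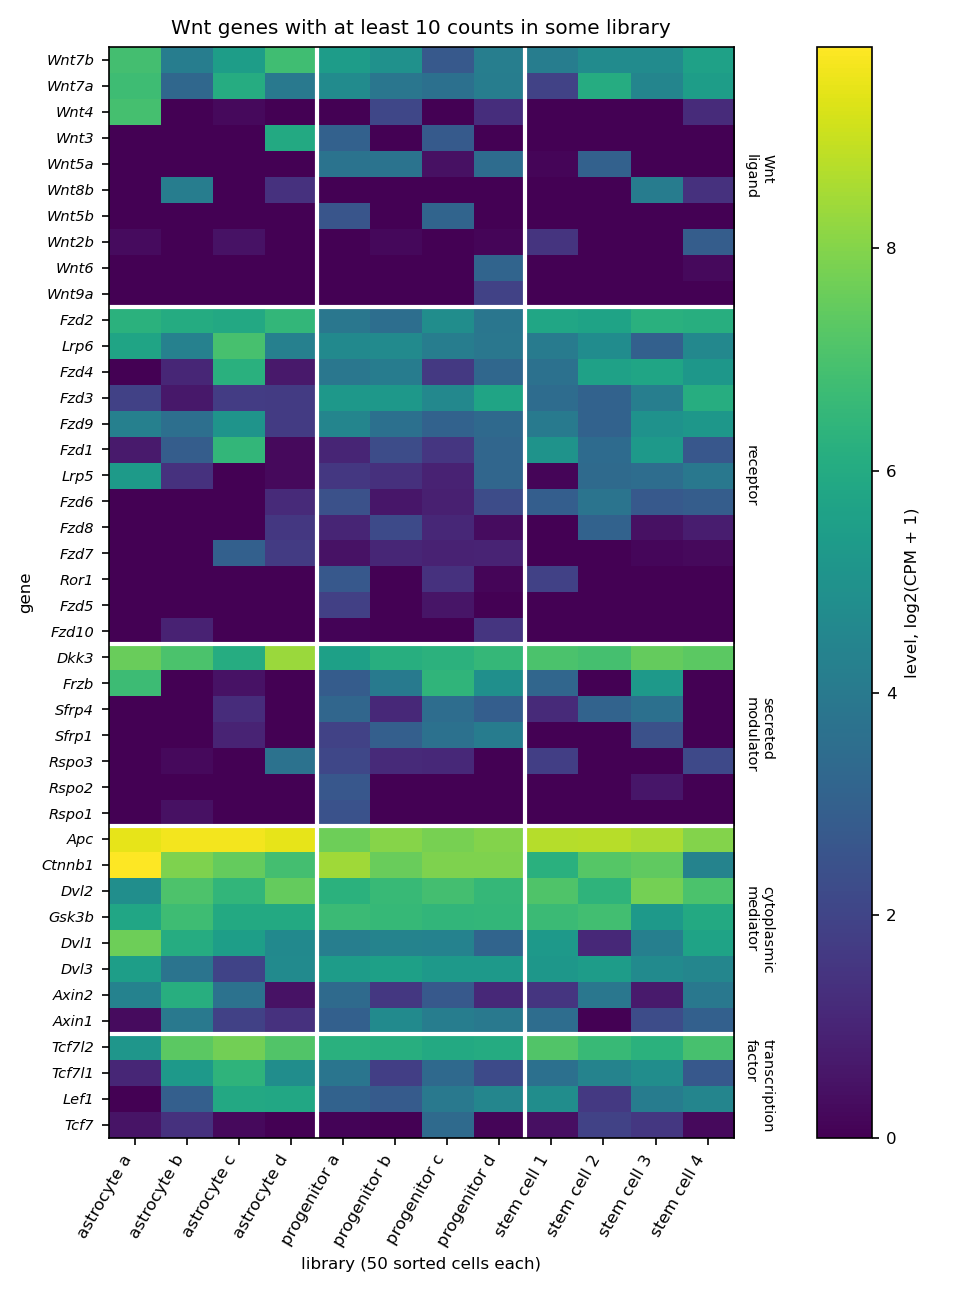
Level of each Wnt gene with at least 10 counts in some library, as log2(CPM + 1) (colour), by library (columns) and role (blocks of rows). Apc and Dkk3 are bright in all 12 libraries, whereas Wnt4 reaches 121 CPM in astrocyte a and at most 3.26 CPM in any other library.

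The ligands with at least 10 counts in all 12 libraries were Wnt7a and Wnt7b, close relatives that are known to act on neural progenitors and brain vessels. Wnt7a (chr6:91363981-91411363, minus strand, GENCODE M21 on GRCm38) was measured at 107, 8.58, 66.6 and 14.5 CPM in astrocytes. Progenitors had 25.3, 13.5, 11.3 and 16.9 CPM of it, and stem cells 2.87, 67.1, 21 and 42.9 CPM. The 3 ranges overlapped, and single libraries of a type lay far apart in astrocytes and in stem cells. Per kilobase of exon, Wnt7a was the highest ligand in each type, at 15.5 ± 14.7 CPM per kb in astrocytes, 5.28 ± 1.94 in progenitors and 10.6 ± 8.75 in stem cells (SD, n = 4). Wnt7b followed at 14.5 ± 10.0, 4.85 ± 3.24 and 5.92 ± 2.78 CPM per kb, and the order of the 2 ligands was within their spread in every type. Neither was called between cell types. The approximate 95% interval of the Wnt7a difference between astrocytes and progenitors ran from -0.29 to 3.36 on the log2 scale. It was taken from the SE by the normal distribution and is narrower than the test itself would allow.

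Wnt5a, the ligand best known for planar polarity signalling, was found mostly in progenitors a, b and d. Its 12.2, 12.4, 0.370 and 10.1 CPM in progenitors stood against no count in any astrocyte library and 0.103, 7.30, 0 and 0 CPM in stem cells. Set against the limit of 3 counts per library, the progenitor mean was at least 14.7-fold higher than the astrocyte mean. Progenitor c had 4 counts and lay below stem cell 2, which had 56, so that progenitors and stem cells overlapped. Too few libraries reached 10 counts for a test against astrocytes. Against stem cells its fitted difference was 2.21 ± 1.74 on the log2 scale (SE), with an adjusted p of 0.544 by edgeR. Wnt5b had 5.01 and 8.04 CPM in progenitors a and c, the libraries with the highest mural marker sums, and no count in any other library, and the part of mural cells in this was not tested. Wnt2b, Wnt6 and Wnt9a did not exceed 6.5, 8.0 and 2.84 CPM in any library. Wnt6 and Wnt9a reached these values in progenitor d, the library with the highest fibroblast marker sum, and stem cell 2 had the highest endothelial marker sum. The part of fibroblasts in Wnt6 and Wnt9a, and of endothelial cells in the Wnt5a of stem cell 2, was not tested.

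Among the receptors, Fzd2 (chr11:102604396-102608058, plus strand), a frizzled with signalling in both branches, was lower in progenitors. Astrocytes had 75.8, 64.3, 59.1 and 89.7 CPM, progenitors 14, 10.6, 26.9 and 13.5 CPM, and stem cells 55.1, 50.6, 74.0 and 69.8 CPM. Every progenitor library lay below every library of both other types. Against stem cells the level was 3.94-fold lower, with a log2 difference of -1.98 ± 0.39 (SE) and an adjusted p of 0.0118 in edgeR's quasi-likelihood test over all genes. The call held in all 8 fits that left out a library and in 6 of 7 other processing settings, and was lost in a fit over all 12 libraries, at an adjusted p of 0.0673 by edgeR. Against astrocytes the fitted difference was 2.15 ± 0.65 in favour of astrocytes and missed the threshold at an adjusted p of 0.0750 by edgeR, with adjusted p of 0.0494 to 0.225 over the 8 fits that left out a library, the lowest without astrocyte a. Of the 7 other processing settings, DESeq2 called it at 5.23e-05 and the fit over all 12 libraries at 0.0220, and the highest adjusted p was 0.179, by edgeR without the count filter. Between astrocytes and stem cells the difference was 0.20, with an approximate 95% interval, taken as for Wnt7a, of -0.87 to 1.28. The part of the mural, neuroblast and oligodendrocyte precursor markers of progenitors in these levels was not tested. Per kilobase, Fzd2 led the receptors in astrocytes (19.7 ± 3.71 CPM per kb) and in stem cells (17.0 ± 3.09), while in progenitors it lay at 4.44 ± 1.98, within the spread of Fzd9 at 5.32 ± 2.65 (SD, n = 4).

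Fzd3 (chr14:65192449-65262463, minus strand), a frizzled known for axon guidance and planar polarity, was low in astrocytes rather than in progenitors. It was close to absent from astrocytes, with 2.77, 0.548, 2.37 and 2.25 CPM, which correspond to 13, 3, 12 and 11 counts. Progenitors had 36.6, 36.1, 22.9 and 52.6 CPM and stem cells 10.2, 7.56, 17.5 and 68.0 CPM. No astrocyte library overlapped with either other type, whereas progenitors and stem cells overlapped through stem cell 4. Progenitors exceeded astrocytes 18.6-fold, a log2 difference of -4.22 ± 0.96 (SE) for astrocytes against progenitors with an adjusted p of 0.0214 by edgeR. That call was lost whenever 1 of the 4 progenitor libraries was left out, at adjusted p of 0.0557 to 0.0941 by edgeR, with the difference staying between -4.40 and -3.91 over all 8 omissions, and it was also lost without the count filter, at 0.0777. Astrocytes against stem cells differed by -3.71 ± 1.28 (SE), with an adjusted p of 0.304 by edgeR and 0.0125 by DESeq2.

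The other frizzled genes and co-receptors were called in no comparison. Fzd9 was the leading receptor per kilobase in progenitors, with 21, 11.3, 7.39 and 9.12 CPM there, 18.3, 11, 32.8 and 2.25 CPM in astrocytes and 15.6, 7.43, 31.1 and 35.7 CPM in stem cells. These values overlapped throughout. Fzd6, known for hair orientation through planar polarity, had 6.57, 12.6, 5.63 and 6.5 CPM in stem cells, above the 0.501 to 4.39 CPM of progenitors and the 0 to 1.23 CPM of astrocytes. Its adjusted p was 0.316 for progenitors and 0.335 for astrocytes against stem cells by edgeR. Fzd1 and Fzd4 were high in a single astrocyte library, astrocyte c, at 88.3 and 74.7 CPM against at most 6.39 and 1.10 CPM in the other astrocytes. In stem cells, Fzd4 ranged from 11.7 to 53.3 CPM and Fzd1 from 5.39 to 37.5 CPM, and DESeq2 but not edgeR placed both below stem cells in progenitors, at adjusted p of 0.0426 and 0.0308. Lrp6 was found in all 12 libraries, between 7.0 and 123 CPM, with a smaller spread in progenitors (19.9 ± 5.56 CPM) than in astrocytes (53.2 ± 49.4 CPM; SD, n = 4). Lrp5 was lower, with 0 to 39.4 CPM in astrocytes, 0.924 to 8.51 CPM in progenitors and 0.103 to 14.3 CPM in stem cells. The highest values of Fzd5, Fzd7, Fzd8, Fzd10 and Ror1 in any library were 2.61, 7.11, 7.56, 1.89 and 5.49 CPM, and none of these 5 receptors reached 10 counts in all libraries of a type.

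**Figure D3:**
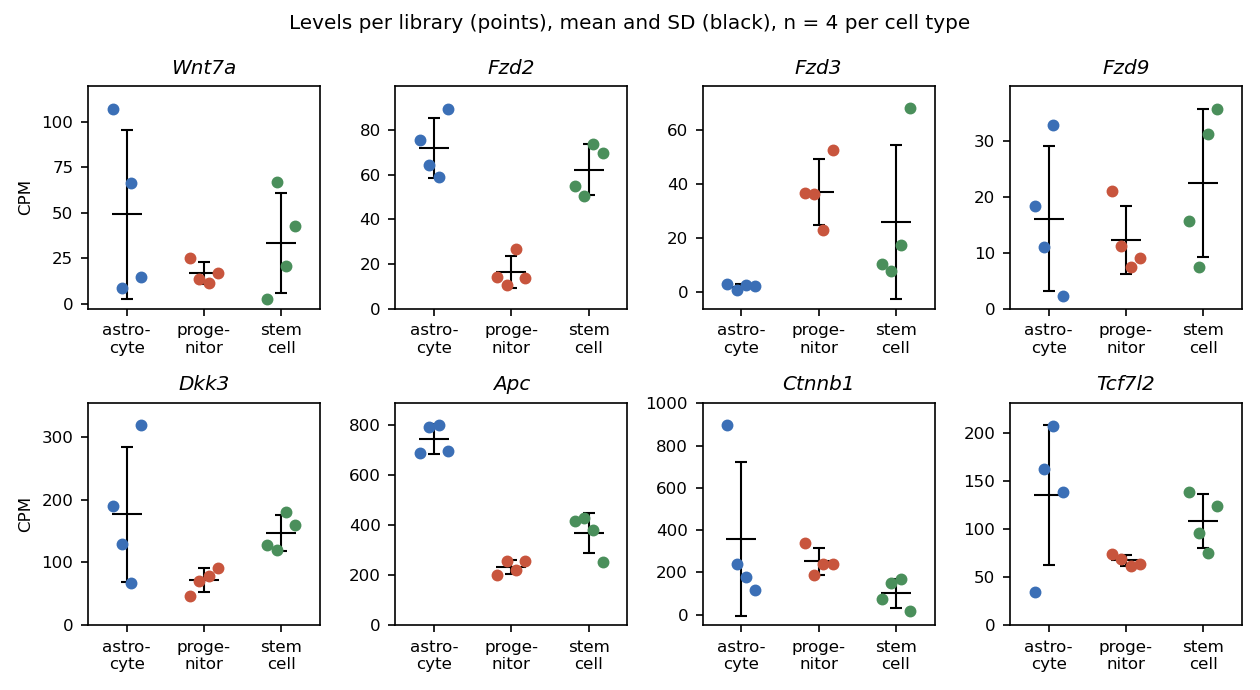
Level in CPM (y axis, linear) of 8 Wnt genes in the 4 libraries of each cell type (points, with mean and SD in black). Every progenitor point of Fzd2 lies below the points of both other types, the astrocyte points of Fzd3 lie at 0.548 to 2.77 CPM, and Apc separates astrocytes, at 689 to 799 CPM, from all other libraries.

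Of the secreted modulators, Dkk3 (chr7:112116017-112159057, minus strand) was the highest per kilobase in every cell type, at 52.5 ± 32.1 CPM per kb in astrocytes, 21.4 ± 5.50 in progenitors and 43.7 ± 8.41 in stem cells (SD, n = 4). It is a divergent member of the Dickkopf family that, unlike Dkk1, is not a typical Lrp5 and Lrp6 antagonist. Astrocytes had 190.4, 129.5, 66.8 and 319 CPM, progenitors 46.8, 70.8, 78.8 and 90.6 CPM, and stem cells 128, 119, 181 and 159 CPM. All stem cell libraries exceeded all progenitor libraries, while astrocyte c fell among the progenitors. Dkk3 was 2.10-fold lower in progenitors than in stem cells, with a log2 difference of -1.07 ± 0.26 (SE) and an adjusted p of 0.0288 by edgeR. The call held in 3 of the 8 fits that left out a library, and was lost without progenitor a, b or c or stem cell 3 or 4, at adjusted p of 0.0651 to 0.0813 by edgeR. It was also lost without the count filter and in the fit over all 12 libraries, at adjusted p of 0.0573 and 0.406 by edgeR, and held in 5 of 7 other processing settings. Against astrocytes, the difference of 1.29 ± 0.52 (SE) in favour of astrocytes had an adjusted p of 0.201 by edgeR.

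The inhibitors Sfrp1, Sfrp4 and Frzb reached 10 counts in all 4 libraries in progenitors alone. Sfrp1 had 2.81, 6.93, 11.5 and 16.6 CPM there, a single astrocyte library with 5 counts and a single stem cell library with 35 counts. Astrocytes and progenitors did not overlap for Sfrp1, which passed the count filter through progenitors alone, and the adjusted p of their difference was 0.0936 by edgeR and 0.00401 by DESeq2. Sfrp4 had 1.17 to 10.3 CPM in progenitors, 0 to 11.3 CPM in stem cells and 7 counts in a single astrocyte library. Frzb had 6.17, 15.4, 84.6 and 28.3 CPM in progenitors and 105 CPM in astrocyte a, but at most 2 counts in astrocytes b to d. Stem cells 1 and 3 had 8.52 and 38.8 CPM of Frzb, and stem cells 2 and 4 none, so that the 3 types overlapped and astrocyte a held the highest value. Astrocytes and progenitors differed by -0.39 ± 1.97 on the log2 scale (SE), with an adjusted p of 0.954 by edgeR. Without astrocyte a the adjusted p was 0.0280 by edgeR. At most 2 counts were then left in any astrocyte library, so that Frzb passed the count filter through progenitors alone. The 3 R-spondins, enhancers of Wnt reception, did not exceed 12.1 CPM in any library, and Rspo3 in astrocyte d held that highest value.

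In the cytoplasm, Apc (chr18:34220924-34322552, plus strand), the scaffold of the beta-catenin destruction complex that also binds microtubules, separated astrocytes from all other libraries. Astrocytes had 689, 795, 799 and 696 CPM, progenitors 200.2, 257, 220.1 and 256 CPM, and stem cells 415, 427, 379 and 254 CPM. The astrocyte libraries lay above all 8 others, and stem cell 4 fell among the progenitors. Apc was 3.20-fold higher in astrocytes than in progenitors, a log2 difference of 1.68 ± 0.24 (SE) with an adjusted p of 0.00614 by edgeR. This call held in all 7 other processing settings and in all 8 fits that left out a library, with a largest adjusted p of 0.0417 by edgeR among the latter. Astrocytes exceeded stem cells by 1.01 ± 0.27 on the log2 scale (SE), with an adjusted p of 0.146 by edgeR and 0.0175 by DESeq2. Stem cells exceeded progenitors by 0.70 ± 0.19 on the same scale, with an adjusted p of 0.0546 by edgeR. Leaving out stem cell 4 gave 0.0182, and leaving out any of the other 7 libraries 0.0941 to 0.157. The part of the granule neuron and oligodendrocyte markers of the astrocyte libraries in these levels was not tested.

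Ctnnb1 (chr9:120929216-120960507, plus strand) was the highest cytoplasmic mediator per kilobase in progenitors and, by its mean, in astrocytes. The astrocyte mean was 69.0 ± 69.7 CPM per kb, against 46.2 ± 3.74 for Apc (SD, n = 4). That rank rested on astrocyte a, as Apc was higher per kilobase in astrocytes b, c and d. In CPM, Ctnnb1 had 896, 238, 180.3 and 118 in astrocytes, 341, 189, 240.1 and 238 in progenitors, and 73.4, 149, 168 and 19.7 in stem cells. Astrocyte a stood far above the other astrocytes, and every progenitor library exceeded every stem cell library. The difference between progenitors and stem cells, 1.27 ± 0.52 on the log2 scale (SE), had an adjusted p of 0.193 by edgeR. Of the exonic length of Ctnnb1, 14.6% is shared with Ulk4 on the other strand, and reads were counted without strand. The same astrocyte a library also had the highest Dvl1 level, 200.2 CPM, against 24.3 to 65.8 CPM in the other astrocytes and 8.0 to 19.8 CPM in progenitors. The adjusted p of Dvl1 between astrocytes and progenitors was 0.118 by edgeR and 0.00985 by DESeq2. In progenitors the remaining mediators were even: Gsk3b had 93.3 ± 6.0 CPM, Dvl2 94.8 ± 16.5 CPM and Dvl3 41.4 ± 3.94 CPM (SD, n = 4), and none of the 3 was called in any comparison. Axin1, the scaffold that Axin2 resembles, had 7.13 to 24.8 CPM in progenitors, 0.213 to 14.8 CPM in astrocytes and 0 to 10.3 CPM in stem cells. Axin2, a negative regulator and a widely used readout of beta-catenin signalling, had 19.4, 70.7, 12 and 0.408 CPM in astrocytes, 9.46, 2.0, 5.64 and 1.20 CPM in progenitors and 1.85, 13.8, 0.625 and 14.1 CPM in stem cells. Its libraries overlapped in all 3 comparisons.

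Tcf7l2 (chr19:55741820-55933654, plus strand), a Tcf factor with a known role in glial differentiation, led the transcription factors in every type. Astrocytes had 34.9, 163, 207 and 139 CPM, progenitors 74.3, 69.3, 61.7 and 64.1 CPM, and stem cells 139, 96.2, 75.4 and 124 CPM. Stem cells lay above all progenitors by a narrow gap, and the astrocyte range spanned both. The difference of progenitors from stem cells was -0.73 ± 0.25 on the log2 scale (SE), with an adjusted p of 0.107 by edgeR and 0.0468 by DESeq2. Astrocytes differed from progenitors by 1.03 ± 0.56 on the same scale, with an adjusted p of 0.379 by edgeR, and Tcf7l2 was called higher in astrocytes, at 0.0323, when astrocyte a was left out. Per kilobase the factors ran in 1 order in all types, Tcf7l2, Tcf7l1, Lef1 and Tcf7, and the neighbouring levels of Tcf7l1 and Lef1 were within their spread in each. Tcf7l1 had 1.06 to 83.4 CPM in astrocytes, 2.51 to 13 CPM in progenitors and 5.57 to 27.3 CPM in stem cells, and Lef1 had 0 to 59.3, 6.01 to 21.8 and 2.08 to 26.9 CPM. Tcf7, best known from T cells, stayed under 3 CPM except for 9.52 CPM in progenitor c.

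Counted over the whole set, few Wnt genes passed the genome-wide test. Between astrocytes and progenitors, 2 of 27 tested Wnt genes were called (Apc and Fzd3), 7.41%, where 8.63% of all 14806 genes tested were called. Between progenitors and stem cells, 2 of 28 were called (Fzd2 and Dkk3), 7.14%, where 8.6% of 15427 genes were. Both shares are near the background and are no result about the set. Sfrp1 and Sfrp4 in the first comparison, and Fzd6 in that of astrocytes with stem cells, were tested although 1 of the 2 cell types had no library at 10 counts. Between astrocytes and stem cells edgeR called 0 of 22, where 0.0468% of 12831 genes were called. Of the 22, 4 had an unadjusted p under 0.05 by edgeR (Apc, Fzd3, Fzd6 and Ctnnb1), as did 1226 of all genes tested. DESeq2 called 2 of the 22, beside 635 of all genes tested. Cell types did not overlap for 5 of 27 Wnt genes between astrocytes and progenitors, 5 of 28 between progenitors and stem cells and 3 of 22 between astrocytes and stem cells, while 21%, 19.3% and 9.97% of all genes tested did not. The median log2 difference of the tested Wnt genes was 1.07 in the first of these comparisons, -0.59 in the second and 0.25 in the third, beside 0.03, 0.04 and 0.14 over all genes tested. These comparisons share their groups with each other and are not independent.

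**Figure D4:**
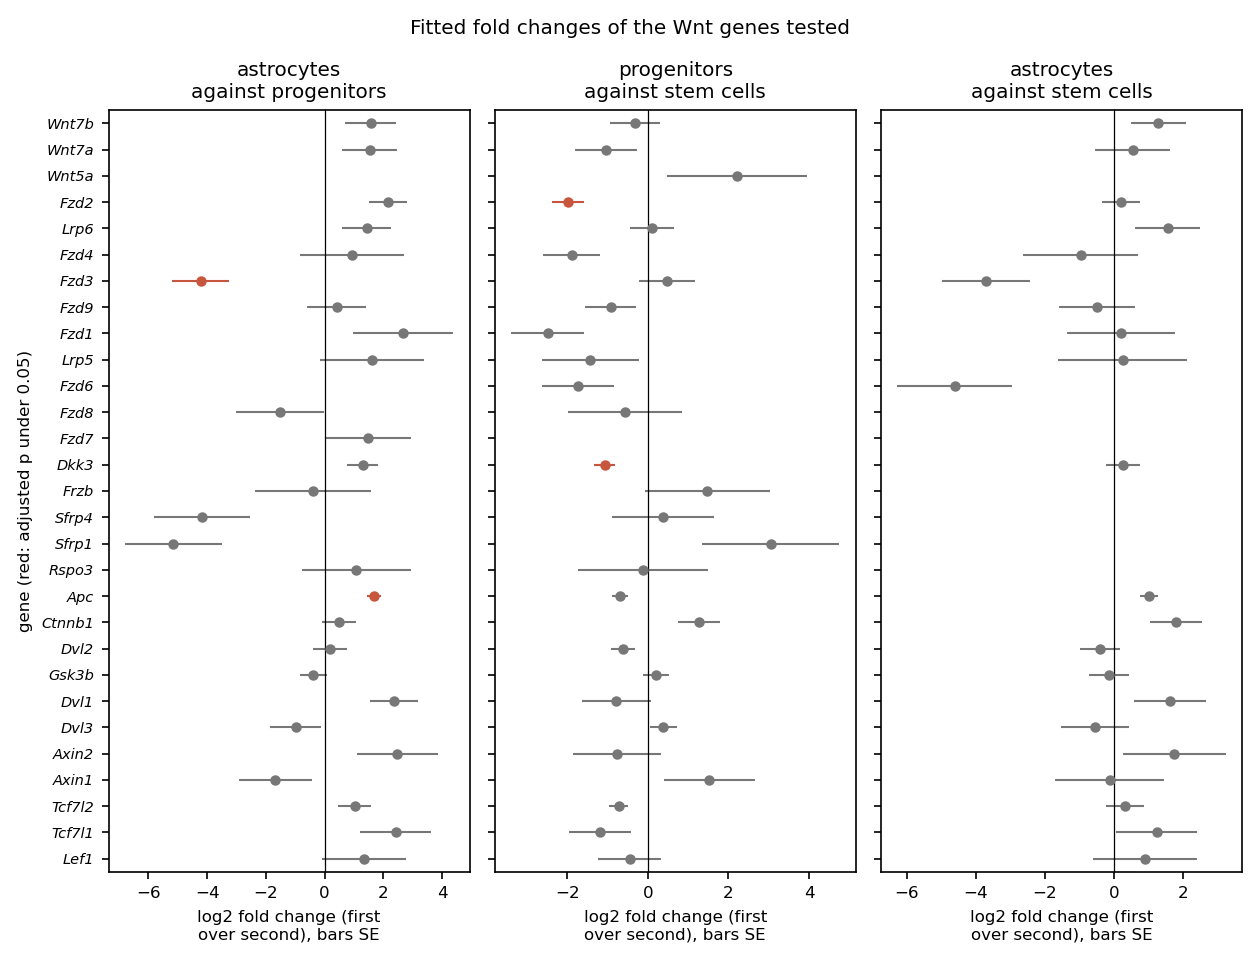
Fitted log2 fold change with SE (x axis, first over second cell type) of the Wnt genes tested in each comparison (y axis), in red where the adjusted p was under 0.05. Apc at 1.68 and Fzd3 at -4.22 are red in the left panel, Fzd2 at -1.98 and Dkk3 at -1.07 in the middle panel, and no gene in the right panel.

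A list of 75 other genes of the pathway, sorted by function, was read beside the Wnt genes. Of 61 tested between astrocytes and progenitors, 1 was higher in astrocytes and 5 were lower, 9.84% against the 8.63% of all genes. Of 61 tested between progenitors and stem cells, 5 were higher in progenitors and 3 lower, 13.1% against 8.6%. The 5 genes lower in astrocytes had no astrocyte library at 10 counts, and 4 of the 5 higher in progenitors than in stem cells had no such stem cell library. These genes passed the count filter through progenitors alone, so that the filter had set the direction in which they could differ, and nothing is read from the shares. None of 53 was called by edgeR between astrocytes and stem cells, where DESeq2 called 3. The medians of the list were 0.37, 0.04 and 0.81 on the log2 scale in that order of comparisons.

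Of 12 genes widely used as targets of beta-catenin, 8 were tested between astrocytes and progenitors, 8 between progenitors and stem cells and 4 between astrocytes and stem cells. In the first comparison 4 were called lower in astrocytes (Ccnd1, Myc, Nkd1 and Apcdd1), all of which had at most 2 counts in every astrocyte library and passed the count filter through progenitors alone. In the second, Ccnd1 and Apcdd1 were called higher in progenitors, and in the third edgeR called none. Of all genes tested, edgeR called 6.18% lower in astrocytes in the first comparison and 4.95% higher in progenitors in the second. The filter had set the direction for all 4 genes in the first and for Apcdd1 in the second, and nothing is read from these counts of targets. Ccnd1, which encodes the G1 cyclin D1, had 111, 94.4, 165 and 107 CPM in progenitors, at most 2 counts in any astrocyte library and 4.72, 0.130, 0.250 and 4.46 CPM in stem cells. Its level was at least 199-fold higher in progenitors than in astrocytes, and the call against stem cells had an adjusted p of 0.00595 by edgeR. Cyclin D1 is also known to respond to growth factor signals outside the Wnt pathway. The growth regulator Myc had 4.80, 30.0, 8.41 and 5.42 CPM in progenitors, no count in astrocytes and 10.3, 0.130, 7.13 and 27.3 CPM in stem cells, so that it was at least 20.3-fold higher in progenitors than in astrocytes. That call, at an adjusted p of 0.0190 by edgeR, was lost without progenitor c (0.0544) or d (0.0521) and without the count filter (0.0592). Axin2 and Lef1, 2 other genes of this target list, were not called in any comparison.

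Nkd1, Dact1 and Apcdd1 were likewise found in every progenitor library and were near 0 in astrocytes. Nkd1, a dishevelled-binding inhibitor, had 23.8, 11.7, 3.23 and 24.9 CPM in progenitors, no count in astrocytes, and 10 and 83 counts in stem cells 2 and 3. Dact1, another dishevelled-binding protein, had 5.21, 3.76, 12.6 and 10.7 CPM in progenitors and no count in the 8 other libraries. Apcdd1, a membrane inhibitor of ligand reception, had 7.41, 3.84, 9.24 and 11.3 CPM in progenitors, 2 counts in a single astrocyte library and none in stem cells. Relative to the limit of 3 counts per library, progenitors were at least 26.6-fold higher than astrocytes for Nkd1, at least 13.5-fold for Dact1 and at least 13.3-fold for Apcdd1. Having passed the count filter through progenitors alone, these 3 could differ from astrocytes in no other direction, and their adjusted p were 0.0172, 0.0163 and 0.0239 by edgeR. The Nkd1 call was lost without progenitor d, at 0.0523, and the Apcdd1 call without astrocyte c or any progenitor library, at 0.0533 to 0.0691, and without the count filter the Dact1 and Apcdd1 calls were lost at 0.0728 and 0.126. Against stem cells, Dact1 and Apcdd1 were at least 19.7-fold and 19.5-fold higher in progenitors, at adjusted p of 0.00871 and 0.00787 by edgeR, with the same limit from the filter. Nkd2 and the secreted inhibitor Draxin were also called higher in progenitors than in stem cells, at least 20.7-fold and 38.5-fold, with adjusted p of 0.0109 and 0.00846 by edgeR, but each had a single high astrocyte library, at 126 and 16.3 CPM. They too passed the filter through progenitors alone, and both calls were lost in the fit over all 12 libraries, at 0.235 and 0.0804. The oligodendrocyte precursor and neuroblast markers given above were higher in the same progenitor libraries, and their part in these values was not tested.

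Lgr4, Daam2 and Tnks2 were lower in progenitors than in stem cells, and Daam2 was also lower than in astrocytes. Lgr4, a receptor for R-spondins, had 60.3, 65.8, 34.2 and 25.3 CPM in progenitors and 233, 178, 153 and 116 CPM in stem cells, a log2 difference of -1.91 ± 0.35 (SE) with an adjusted p of 0.00898 by edgeR. Astrocytes had 57.9, 64.1, 97.6 and 122 CPM of Lgr4 and overlapped with progenitors, at an adjusted p of 0.478 by edgeR. Daam2, a dishevelled-binding formin, had 153, 134, 133 and 110.3 CPM in progenitors, 186, 268, 347 and 307 CPM in stem cells and 216, 712, 1039 and 813 CPM in astrocytes. Progenitors lay below every library of both other types for Daam2, and it was called in both comparisons, at adjusted p of 0.0160 against astrocytes and 0.0140 against stem cells by edgeR. The second of these calls was lost without progenitor d, at 0.0544, and in the fit over all 12 libraries, at 0.246. The tankyrase gene Tnks2, whose product marks Axin for degradation, was lower in progenitors than in stem cells by a log2 difference of -1.50 ± 0.40 (SE), with an adjusted p of 0.0440 by edgeR; leaving out any of 6 of the 8 libraries ended that call, as did the absence of a count filter (0.0720) and the fit over all 12 libraries (0.491). Astrocytes had 19.8, 74.2, 282 and 73.1 CPM of Tnks2 against 22.6, 28.0, 27.2 and 12 CPM in progenitors, which overlapped through astrocyte a, at an adjusted p of 0.129 by edgeR.

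**Figure D5:**
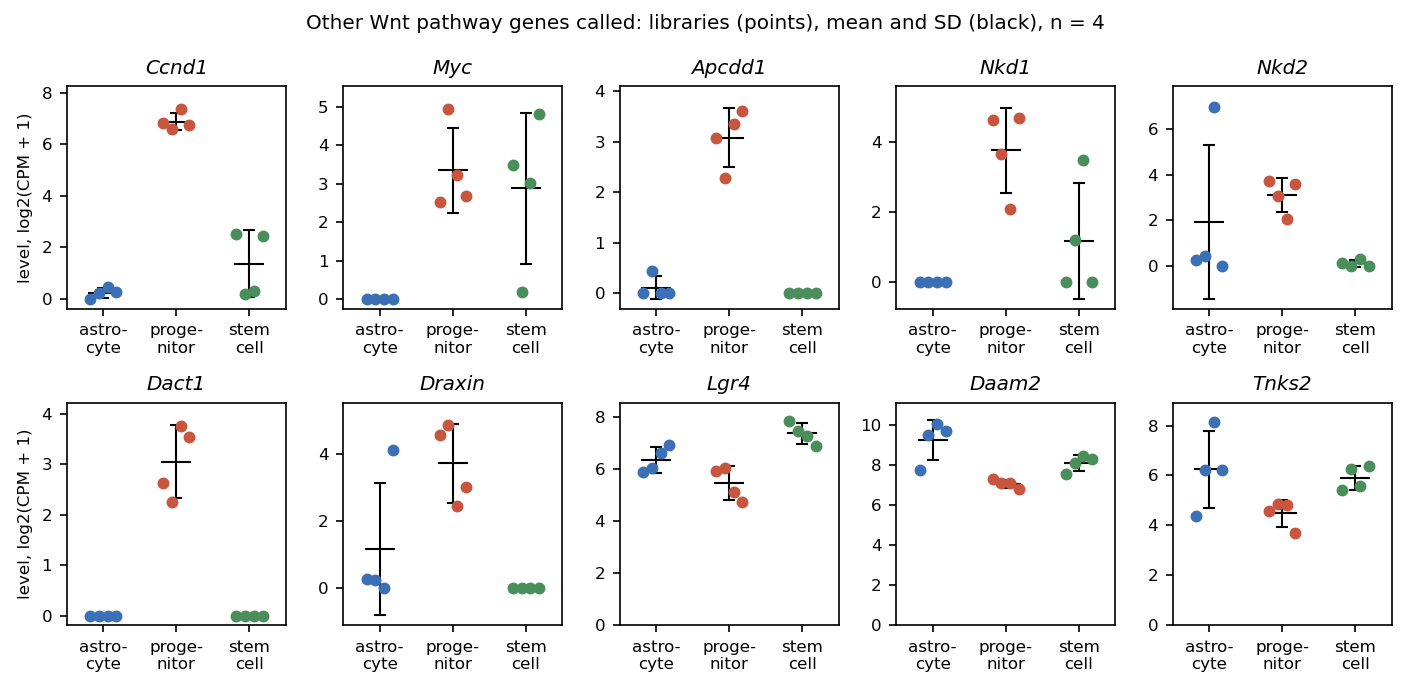
Level as log2(CPM + 1) (y axis) of the 10 other pathway genes called in some comparison, in the 4 libraries of each cell type (points, with mean and SD in black). Dact1 lies at 0 in all astrocyte and stem cell libraries and at 3.76 to 12.6 CPM in progenitors, while Lgr4, Daam2 and Tnks2 are lowest on average in progenitors.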

How the data were processed

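The deposited table holds raw read counts per gene for all 12 libraries, made by the authors from SMARTer v4 and Nextera XT libraries. Per the study's methods and the submitters' processing notes, reads were trimmed, freed of rRNA, mitochondrial and PhiX sequence, aligned with HISAT2 2.0.6 to GRCm38.p4 and counted without strand by featureCounts on GENCODE annotation. SMARTer reads carry no molecular identifiers, so limits from counts cover the counting error of reads alone and not that of molecules. The p-values of the fits set the difference between cell types against the spread between libraries.

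Gene symbols, biotypes, positions and exon lengths came from GENCODE M21, which matched 50376 of 50600 identifiers. Each pair of cell types was tested with edgeR 4.0.16 (R 4.3.3; TMM, quasi-likelihood), keeping genes that reached 10 counts in 4 or more of the 8 libraries; p-values were adjusted by Benjamini and Hochberg's method across every gene kept, with 0.05 as threshold, and DESeq2 1.42.0 was an alternative. The procedure was tested on simulated data. The genes, lists and rules were chosen with earlier results of these data known. Values are given by library for Wnt genes called in some comparison and for the gene of each role highest per kilobase in a cell type; Wnt5a, Wnt3, Wnt4, Wnt5b, Wnt8b, Fzd1, Fzd4, Fzd6, Frzb, Sfrp1, Dvl1 and Axin2 were added after their values were seen. The pathway list held both Gpr124 and Adgra2, names of the same gene, of which only Adgra2 is a symbol of the annotation. Alternatives are given in the closing section.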

Additional observations from a re-analysis of the deposited data

Results flagged for a closer look

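Among 24 groups of 4 libraries (8 Wnt genes in 3 cell types), 2 held a library whose gap to its nearest neighbour exceeded Dixon's 95% critical value for 4 values, a limit at which chance marks about 1 in 20 groups. Fzd3 in stem cell 4 was at 68.0 CPM, against 7.56 to 17.5 CPM in the other stem cell libraries. Ctnnb1 in astrocyte a was at 896 CPM, against 118 to 238 CPM in the other astrocytes; the granule neuron and oligodendrocyte marker sums were also highest in this library, at 5483 and 3205 CPM.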

How the results depend on the processing

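Counts of called Wnt genes moved with the test and filter, and the cause was not tested. Between astrocytes and progenitors (2 of 27 called), DESeq2 called 5 of 27, no count filter 1 of 45 and a minimum of 10 counts in every library 1 of 13. The 5 of DESeq2 included Sfrp1, which passed the count filter through progenitors alone. With 1 library left out the number ran from 1 to 6. Without astrocyte a it was 6 of 29 (Apc, Fzd3, Fzd2, Tcf7l2, Frzb and Wnt5a), without astrocyte c 4 of 30, and without progenitor a, b or d 1 of 28. Frzb and Wnt5a reached 10 counts in none of astrocytes b to d. They passed that filter through progenitors alone, so that it had set the direction in which they could differ. Between progenitors and stem cells (2 of 28 called), DESeq2 called 6 of 28, no count filter 1 of 44 and a fit over all 12 libraries 0 of 29. With 1 library left out the number ran from 1 to 3, with 1 without progenitor a, b or c. Between astrocytes and stem cells (0 of 22 called), DESeq2 called 2 of 22 and the fit over all 12 libraries 1 of 29. The counts over all genes tested moved too. DESeq2 called 2431 of 14806, 2394 of 15427 and 635 of 12831 genes, against 1278, 1327 and 6 by edgeR. Without astrocyte a, edgeR called 1802 of 16176 in the first comparison, and without the count filter 529 of 27810. There it called 287 of 5862 with the minimum in every library and 1510 of 16118 without astrocyte c. Without progenitor a, b or d it called 1024 of 15353, 1035 of 15462 and 794 of 15441. In the second comparison it called 1101 of 16030, 1028 of 16128 and 971 of 16094 without progenitor a, b or c, and 1045 of 26218 without the count filter. Over all 12 libraries it called 381 of 16119 in the second and 346 in the third. The moves of the Wnt genes are no result about the set. Of the other pathway genes, DESeq2 called 10, 14 and 3 in these comparisons (6, 8 and 0 by edgeR), no count filter left 3 in the first, a minimum in every library left 1 in the first and 5 in the second, and the fit over all 12 libraries called 4 in the second and 2 in the third. With 1 library left out they ran from 3 to 11 in the first comparison, with 11 of 62 without astrocyte a and 3 of 63 without progenitor d. The difference of Dkk3 between astrocytes and stem cells turned from 0.25 to -0.22 without astrocyte d, and ran from -0.22 to 0.52 with 1 library left out (adjusted p 0.897 without astrocyte d, 0.723 to 0.997 over these fits, by edgeR). No other difference recomputed changed direction; these were those of the 4 called Wnt genes in all 3 comparisons and of the 10 other called pathway genes in the comparisons where they were called, and the minimum of 10 counts in every library gave no value for the sparse ones. No paired analysis was possible because the astrocyte and progenitor columns carry no replicate numbers.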

Other observations

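Other genes widely used as beta-catenin targets were too sparse for the test, and they are given as counts chosen after their values were seen. Lgr5, a receptor for R-spondins and a stem cell marker of several epithelia, had 2, 44, 176 and 0 counts in progenitors a to d and no count in any astrocyte or stem cell library. Sp5, a transcription factor of the same target list, had 2, 48, 0 and 73 counts in progenitors a to d and none in the other 8 libraries. Notum, a secreted enzyme that inactivates Wnt ligands, had 75 counts in progenitor d and at most 5 counts in any other library. No progenitor library held all 3 of them at 10 counts.

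Rnf43 and Znrf3, ligases that clear frizzled receptors from the surface, each had a count in all 12 libraries. Progenitors had 20.4 to 34.6 CPM of Rnf43 and 11.5 to 24.0 CPM of Znrf3. Astrocytes had 14.1 to 32.0 CPM of Znrf3 and overlapped with progenitors, at an adjusted p of 0.985 by edgeR. Rnf43 was uneven in astrocytes, at 0.213, 118, 0.395 and 27.2 CPM in a to d, and had 20.8, 13.7, 2.13 and 0.186 CPM in stem cells 1 to 4. The edgeR adjusted p of Znrf3 for progenitors against stem cells was 0.0574, with a log2 difference of -1.41 ± 0.40 (SE) and 30.9 to 64.1 CPM in stem cells.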
